A study of Mus musculus with 58 samples.

Results

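A set of genes near human Alzheimer risk loci was followed in the brain of TG mice, which carry the APP/PS1 transgenes named in the title of the series, and of their WT counterparts. The genes were chosen by symbol: Bin1, Picalm, Sorl1, Abca7, Ptk2b, Cd2ap, Mef2c, Ms4a6d, Ms4a7 and Cass4. Of these 10 genes, 9 were found by symbol among the 17216 named genes of the array, each with 1 probe set, and Picalm was not analysed here. No filter on low values was applied, so all 9 genes were tested in every comparison.

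Human association studies place these genes near variants that change the risk of late-onset Alzheimer's disease, and their products fall into a few cellular systems. Bin1 encodes a membrane-bending protein of the amphiphysin family, Cd2ap an adaptor that couples membrane traffic to actin, and Sorl1 a sorting receptor that carries the amyloid precursor protein through the endosome with the retromer complex. Ptk2b encodes a calcium-responsive tyrosine kinase of the focal adhesion kinase family, Cass4 a scaffold of the Cas family that such kinases act on, and Mef2c a transcription factor of neurons and microglia. Abca7 is a lipid transporter, and Ms4a6d and Ms4a7 are myeloid-cell members of the MS4A family of membrane-spanning proteins.

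Expression was measured on 58 arrays from 30 mice of the C57BL/6J background at 8 months of age. The frontal cortex gave 6 female TG, 8 male TG, 6 female WT and 8 male WT arrays. The hippocampus gave 7 female TG, 8 male TG, 7 female WT and 8 male WT arrays. Each array of a region came from a different mouse, and 28 mice gave both regions. The labels state only TG or WT as genotype and give no transgene promoter, line or littermate status. The protocol describes the cortical piece as prefrontal. Values are log2 expression levels after robust multi-array averaging (RMA), so a difference of 1 is a 2-fold change in signal.

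Thy1, whose regulatory elements drive the transgenes in some APP/PS1 lines, served as a check of the labels. It lay between 11.90 and 12.38 on 28 TG arrays, against 10.55 to 11.42 on 29 WT arrays. The remaining array, labelled female TG hippocampus of mouse 7, had 10.92 and thus went against its label. The array of female TG hippocampus mouse 4 stood apart in its tissue markers. Its mean over 7 genes of the hippocampal fields, such as Prox1 of the dentate gyrus, was 5.16, against 6.74 to 7.71 on the other hippocampus arrays and 4.10 to 4.48 in frontal cortex. The mean over 7 cortical layer genes was 5.99 to 6.66 in hippocampus and 6.49 to 7.16 in frontal cortex. Both of these lists were drawn up after values had been seen. Hippocampal results are therefore given with all arrays and, where they were called, without mice 4 and 7.

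In frontal cortex, 7 of the 9 genes differed between TG and WT mice when the sexes were averaged. Ms4a6d, Cd2ap, Ms4a7 and Bin1 were higher in TG mice, Sorl1, Ptk2b and Mef2c were lower, and Abca7 and Cass4 did not pass the test. The limma test at a Benjamini-Hochberg adjusted p of 0.05 called 12.9% of all 17216 named genes higher and 18.7% lower in the same comparison. The median change was 0.17 over the 9 genes and -0.01 over all named genes. The largest of the 9 changes was 1.42-fold, for Ms4a6d. In the hippocampus 1 gene was higher (Ms4a6d) and 1 lower (Sorl1), where 3.94% and 2.7% of all named genes were called in those directions. When all array medians were set equal, the shares of all genes called in frontal cortex became 9.64% higher and 28.9% lower, while the 9 genes still gave 4 higher and 3 lower. In hippocampus those shares became 3.35% and 6.72%, with 1 of the 9 genes higher and 1 lower as before.

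**Figure D1:**
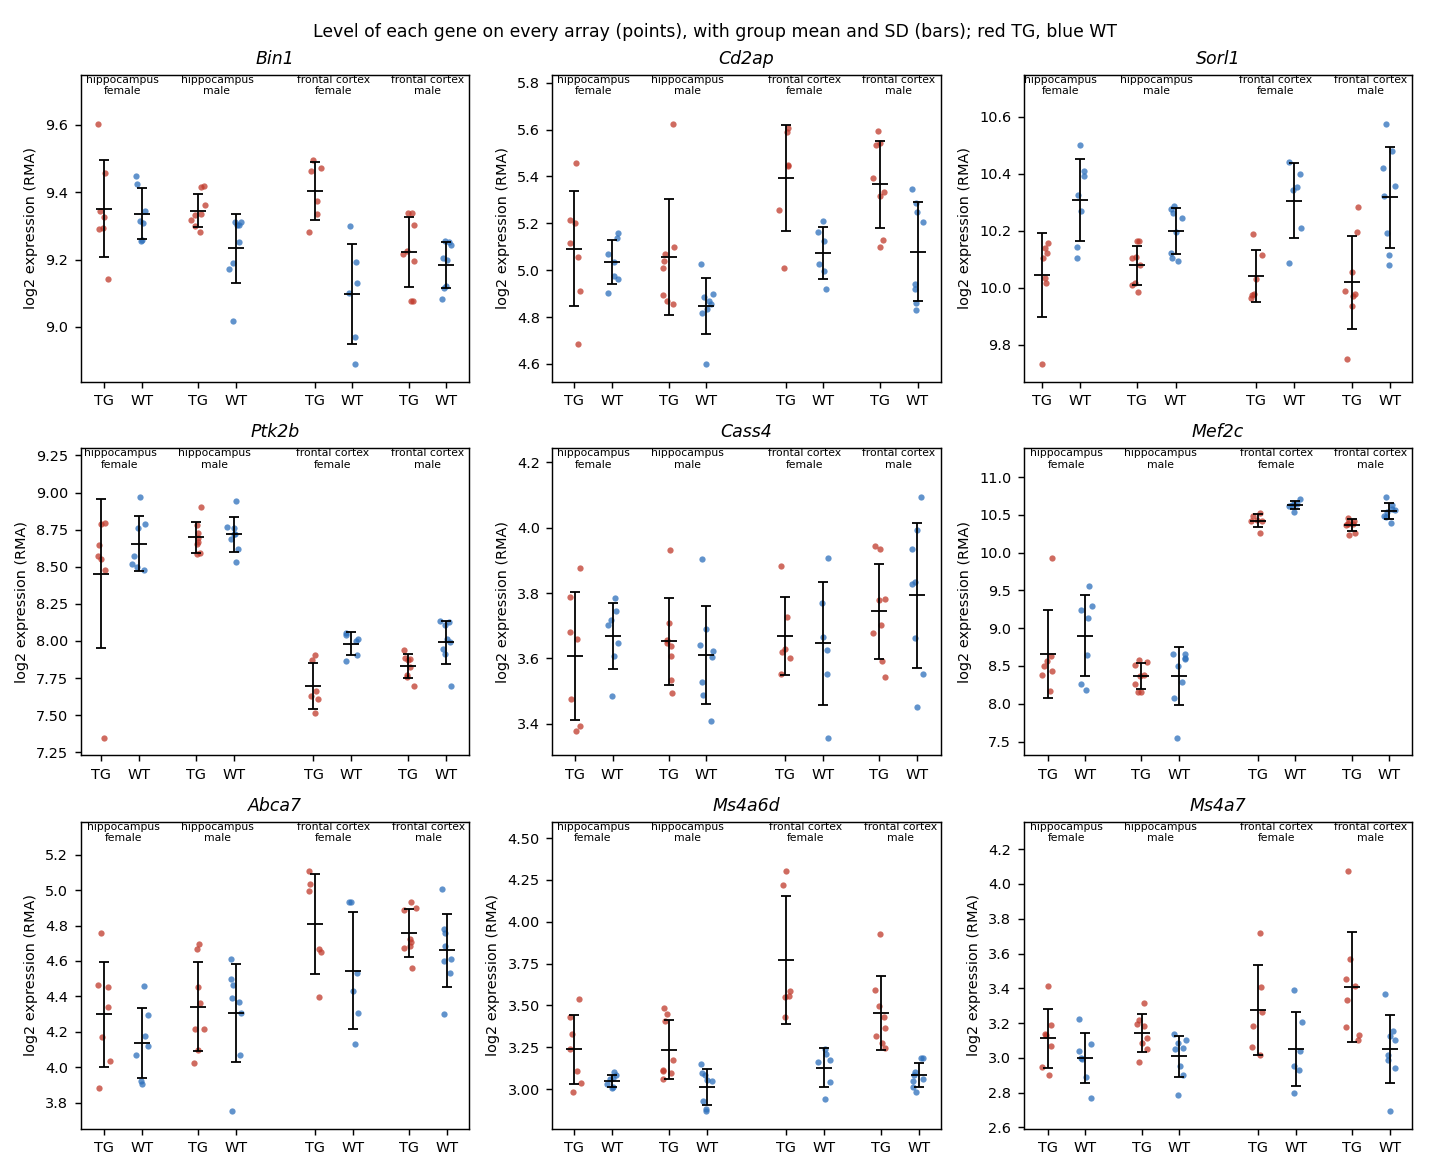
Log2 expression of the 9 genes on every array (points), with the mean and SD of each group as black bars. Groups run from hippocampus to frontal cortex, females before males and TG (red) left of WT (blue). The Ms4a6d points of TG frontal cortex lie above all WT frontal cortex points of the same sex, and the Mef2c panel shows a gap of more than 1 unit between most hippocampus arrays and frontal cortex.

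**Figure D2:**
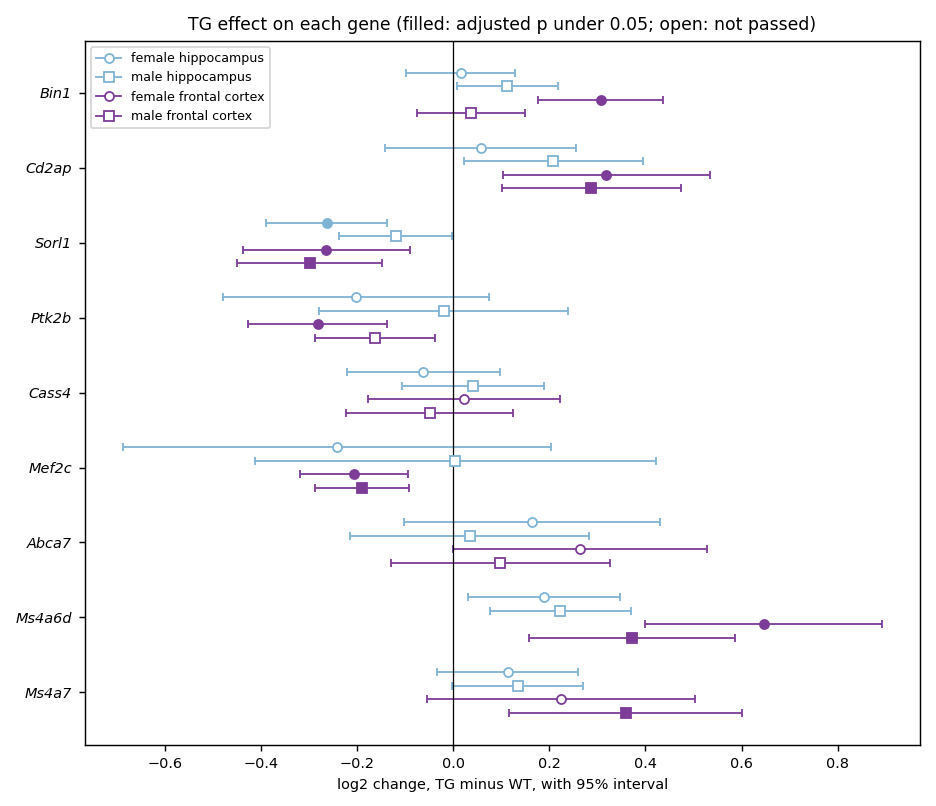
Log2 change between TG and WT for each gene, with its 95% interval, in females (circles) and males (squares) of hippocampus (blue) and frontal cortex (purple). Filled symbols passed the adjusted threshold. Of the 18 frontal cortex estimates 11 are filled, and of the 18 hippocampus estimates 1 is filled, that of Sorl1 in females.

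Promoter windows are shown for Sorl1 and Mef2c, which were lower in TG frontal cortex, and for Cd2ap and Ms4a7, which were higher. Each window is the 300 bases from 250 before to 50 after a transcription start in RefSeq, assembly GRCm38.p6, read 5′ to 3′ on the strand of the gene. Where RefSeq lists several starts, the most upstream one is given. Capitals mark letters that match one of 5 motifs searched on both strands: GAGGAA (core of ETS and PU.1 sites), TGACG (cAMP response element, a partial site), GGGCGG (SP1 box), the MEF2 core (CTA and TAG parted by any 4 bases) and TGANTCA (AP-1).
Sorl1, chr9:42124248-42124547, minus strand: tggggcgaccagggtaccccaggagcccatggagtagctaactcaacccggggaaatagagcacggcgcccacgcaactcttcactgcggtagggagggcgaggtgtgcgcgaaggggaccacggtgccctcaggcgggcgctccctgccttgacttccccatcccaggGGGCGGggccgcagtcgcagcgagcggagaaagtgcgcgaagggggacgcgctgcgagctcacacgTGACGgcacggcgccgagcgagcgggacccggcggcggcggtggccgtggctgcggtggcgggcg
Mef2c, chr13:83503784-83504083, plus strand: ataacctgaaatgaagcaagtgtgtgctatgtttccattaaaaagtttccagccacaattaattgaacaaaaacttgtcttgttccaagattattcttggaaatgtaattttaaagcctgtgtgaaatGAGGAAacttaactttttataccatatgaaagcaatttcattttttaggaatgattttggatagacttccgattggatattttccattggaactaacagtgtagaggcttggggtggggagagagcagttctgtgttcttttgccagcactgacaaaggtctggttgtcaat
Cd2ap, chr17:42876375-42876674, minus strand: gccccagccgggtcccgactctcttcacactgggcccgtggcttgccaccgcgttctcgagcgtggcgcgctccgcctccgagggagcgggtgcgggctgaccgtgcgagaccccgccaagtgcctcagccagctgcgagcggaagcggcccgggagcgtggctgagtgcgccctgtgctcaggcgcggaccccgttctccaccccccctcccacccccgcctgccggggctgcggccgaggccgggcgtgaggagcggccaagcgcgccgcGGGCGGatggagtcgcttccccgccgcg
Ms4a7, chr19:11336097-11336396, minus strand: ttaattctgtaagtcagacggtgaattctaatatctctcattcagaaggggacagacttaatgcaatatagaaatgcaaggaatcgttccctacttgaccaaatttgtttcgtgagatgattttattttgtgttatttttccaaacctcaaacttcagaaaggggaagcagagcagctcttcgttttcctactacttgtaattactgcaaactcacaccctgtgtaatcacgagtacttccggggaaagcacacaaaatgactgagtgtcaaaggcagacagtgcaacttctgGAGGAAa
In the Sorl1 window an SP1 box begins at -81 and a TGACG at -15 from the start. The Mef2c window holds a GAGGAA at -122, the Ms4a7 window a GAGGAA at 44 and the Cd2ap window an SP1 box at 23. No 2 marked motifs overlap. Among all 32851 mouse windows of this length, 28.3% hold GAGGAA, 20.8% TGACG, 35.7% GGGCGG, 3.69% the MEF2 core and 7.81% TGANTCA. The MEF2 core and the AP-1 letters occur in none of these 4 windows. Windows at other starts, not shown, hold the AP-1 letters at -137 for Mef2c and at -81 for Ms4a7. Such matches describe letters only and were not tested as binding sites.

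Bin1 was higher in TG frontal cortex for the mean of the sexes, by 0.17 (SE 0.04, adjusted p = 0.00187, limma), and of the single sexes it passed in females. Bin1 ranged in female frontal cortex from 9.28 to 9.50 (median 9.42) on 6 TG arrays and from 8.89 to 9.30 (median 9.12) on 6 WT arrays. The ranges overlapped only narrowly. Male frontal cortex gave Bin1 levels from 9.08 to 9.34 (median 9.22) on 8 TG arrays and from 9.08 to 9.25 (median 9.20) on 8 WT arrays, which overlapped throughout. The log2 change was 0.31 (SE 0.06, adjusted p = 0.000834, limma) in females. In males it was 0.04 (SE 0.05, adjusted p = 0.702, limma), with a 95% interval from -0.07 to 0.15. The female change minus the male change was 0.27 (SE 0.08, unadjusted p = 0.00322). After adjustment over all genes that difference did not pass (adjusted p = 0.712), so a sex difference of Bin1 was not called.

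Cd2ap, the actin-linked adaptor, was higher in TG frontal cortex of both sexes by similar amounts. Cd2ap ranged in female frontal cortex from 5.01 to 5.61 (median 5.45) on TG arrays and from 4.92 to 5.21 (median 5.07) on WT arrays. In males Cd2ap ranged from 5.10 to 5.59 (median 5.36) on TG arrays and from 4.83 to 5.35 (median 5.07) on WT arrays. The groups overlapped in both sexes, with the TG medians above the WT maximum in females and males alike. Its log2 change was 0.32 (SE 0.11, adjusted p = 0.0314, limma) in females and 0.29 (SE 0.09, adjusted p = 0.0234, limma) in males. The mean of the sexes was 0.30 (SE 0.07, adjusted p = 0.00106, limma). The single-sex calls lay close to the threshold. Over the arrays left out in turn, the change stayed between 0.28 and 0.40 in females and between 0.25 and 0.33 in males. The female call ended without TG mouse 4, 9, 11 or 12 or WT mouse 1, 2 or 6 (adjusted p from 0.0591 to 0.0858), and the male call without TG mouse 44 or WT mouse 38, 39 or 48 (0.0512 to 0.0556). Both also ended with equal array medians, at 0.0626 in females and 0.0515 in males, and the call for the mean of the sexes held in each of these settings.

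Sorl1, the sorting receptor, was lower in TG mice in both regions. Sorl1 ranged in female frontal cortex from 9.97 to 10.19 (median 10.01) on TG arrays and from 10.09 to 10.44 (median 10.35) on WT arrays. Male frontal cortex gave Sorl1 levels from 9.75 to 10.28 (median 9.98) on TG arrays and from 10.08 to 10.58 (median 10.34) on WT arrays. In each sex the TG median lay below the lowest WT array. The log2 change was -0.26 (SE 0.08, adjusted p = 0.0274, limma) in females, -0.30 (SE 0.07, adjusted p = 0.00387, limma) in males and -0.28 (SE 0.06, adjusted p = 0.000238, limma) for the mean of the sexes, a level 0.823 times that of WT. The female call ended without TG mouse 4 or 9 or WT mouse 2, 5, 6 or 14, with adjusted p from 0.053 to 0.0688.

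In the hippocampus, Sorl1 ranged from 9.73 to 10.16 (median 10.10) on 7 female TG arrays and from 10.11 to 10.50 (median 10.33) on 7 female WT arrays. In males it ranged from 9.99 to 10.16 (median 10.09) on 8 TG arrays and from 10.10 to 10.29 (median 10.22) on 8 WT arrays. The groups overlapped in both sexes, and the lowest female TG value was that of mouse 4. Its log2 change was -0.26 (SE 0.06, adjusted p = 0.0165, limma) in females and -0.12 (SE 0.06, adjusted p = 0.36, limma) in males. For the mean of the sexes it was -0.19 (SE 0.04, adjusted p = 0.00427, limma). Without the hippocampus arrays of mice 4 and 7 the change was -0.17 for the mean of the sexes (adjusted p = 0.0059) and -0.22 in females (adjusted p = 0.0382). With only the groups compared in the fit, the female call ended (adjusted p = 0.171). A difference of the hippocampal change between the sexes was not called (-0.14, SE 0.08, adjusted p = 0.989).

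Ptk2b, the calcium-responsive kinase, was lower in TG frontal cortex. Ptk2b ranged in female frontal cortex from 7.52 to 7.90 (median 7.65) on TG arrays and from 7.87 to 8.05 (median 8.01) on WT arrays. In males Ptk2b ranged from 7.69 to 7.94 (median 7.85) on TG arrays and from 7.70 to 8.14 (median 8.00) on WT arrays. The female groups overlapped by a narrow margin and the male groups over most of the TG range. The log2 change was -0.28 (SE 0.07, adjusted p = 0.005, limma) in females. In males it was -0.16 (SE 0.06, adjusted p = 0.0577, limma), and it passed without TG mouse 46 (0.044) or WT mouse 52 (0.0107), with array weights (0.041), with the brighter genes alone (0.0369) and with equal array medians (0.0165). Over 16 male arrays left out in turn, the adjusted p of the male change ran from 0.0107 to 0.116 (limma). The mean of the sexes was -0.22 (SE 0.05, adjusted p = 0.000425, limma). With all 8 groups in 1 fit the female call ended (adjusted p = 0.0855).

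Cass4, the Cas-family scaffold, did not pass the test in any TG comparison, and its groups overlapped throughout. In frontal cortex it ranged from 3.55 to 3.88 on female TG arrays, against 3.36 to 3.91 on female WT arrays, and from 3.54 to 3.94 on male TG arrays, against 3.45 to 4.09 on male WT arrays. The change for the mean of the sexes was -0.01 in frontal cortex (95% interval -0.15 to 0.12, adjusted p = 0.911, limma). In the hippocampus it was also -0.01 (95% interval -0.12 to 0.10, adjusted p = 0.945, limma).

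Mef2c, the transcription factor, was lower in TG frontal cortex of both sexes. Mef2c ranged in female frontal cortex from 10.26 to 10.53 (median 10.43) on TG arrays and from 10.54 to 10.70 (median 10.64) on WT arrays, with no overlap. All TG arrays lay below all WT arrays for 4.22% of all named genes in this comparison. Male frontal cortex gave Mef2c levels from 10.24 to 10.46 (median 10.38) on TG arrays and from 10.40 to 10.73 (median 10.56) on WT arrays, with a small overlap. Its log2 change was -0.21 (SE 0.05, adjusted p = 0.008, limma) in females, -0.19 (SE 0.05, adjusted p = 0.00455, limma) in males and -0.20 (SE 0.04, adjusted p = 8.83e-05, limma) for the mean of the sexes. The calls depended on which arrays set the spread. With hippocampus arrays in the same fit, the changes were the same and the adjusted p became 0.469 in females, 0.434 in males and 0.214 for the mean.

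Most measured markers of neurons were lower, as were Sorl1, Ptk2b and Mef2c. In frontal cortex the mean level over 7 measured genes of excitatory neurons lay between 8.04 and 8.39 on female TG arrays, against 8.52 to 8.57 on female WT arrays. In males it lay between 8.03 and 8.48 on TG arrays and between 8.13 and 8.56 on WT arrays. Of these 7 genes 5 were lower and 1 higher (Camk2a, 0.21) in TG frontal cortex for the mean of the sexes, and Nrgn (-0.05) did not pass. Of 8 interneuron genes 6 were lower. Among all named genes 18.7% were called lower and 12.9% higher in that comparison. The cortical layer list was also lower, at 6.51 to 6.86 on female TG arrays against 6.95 to 7.16 on female WT arrays. In males its ranges overlapped, at 6.49 to 6.91 on TG arrays and 6.72 to 7.07 on WT arrays. In bulk tissue, fewer cells of a type and less RNA per cell cannot be told apart, and the part of neuronal content in the changes of Sorl1, Ptk2b and Mef2c was not tested.

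Abca7, the lipid transporter, did not pass the test in any TG comparison. Abca7 ranged in female frontal cortex from 4.40 to 5.11 (median 4.83) on TG arrays and from 4.13 to 4.93 (median 4.48) on WT arrays. In males Abca7 ranged from 4.56 to 4.93 (median 4.71) on TG arrays and from 4.30 to 5.01 (median 4.65) on WT arrays. The groups overlapped broadly in both sexes. The change for the mean of the sexes was 0.18 (SE 0.09, adjusted p = 0.111, limma), with a 95% interval from 0.01 to 0.36. It passed when female TG mouse 8 (0.0388), female WT mouse 1 (0.0433) or female WT mouse 2 (0.0464) was left out. The change was 0.22 in each of these cases. Over 28 arrays left out in turn, its adjusted p ran from 0.0388 to 0.224 (limma).

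Ms4a6d and Ms4a7 were dim. Ms4a6d fell below the 25th percentile of named genes of its own array on 42 of 58 arrays, and Ms4a7 on 48. No such array was found for the other 7 genes. Fold changes of genes this close to the floor of the scale can understate a change in RNA.

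Ms4a6d was higher in TG frontal cortex on every array. Ms4a6d ranged in female frontal cortex from 3.43 to 4.30 (median 3.57) on TG arrays and from 2.94 to 3.24 (median 3.17) on WT arrays. Male frontal cortex gave Ms4a6d levels from 3.25 to 3.92 (median 3.40) on TG arrays and from 2.98 to 3.19 (median 3.07) on WT arrays. Neither sex showed overlap. The TG arrays lay above all WT arrays for 4.5% of named genes in females and 3.08% in males. The log2 change was 0.65 (SE 0.12, adjusted p = 0.000274, limma) in females and 0.37 (SE 0.10, adjusted p = 0.0108, limma) in males. The difference between the sexes was 0.27 (SE 0.16, adjusted p = 0.791).

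In the hippocampus Ms4a6d ranged from 2.99 to 3.54 (median 3.24) on female TG arrays and from 3.0 to 3.10 (median 3.06) on female WT arrays. In males it ranged from 3.06 to 3.48 (median 3.14) on TG arrays and from 2.87 to 3.15 (median 3.05) on WT arrays. These groups overlapped, and the upper TG arrays lay above WT. The change for the mean of the sexes was 0.21 (SE 0.05, adjusted p = 0.0137, limma), and 0.20 without mice 4 and 7 (adjusted p = 0.0225). In single sexes it was 0.19 in females (adjusted p = 0.237) and 0.22 in males (adjusted p = 0.132), neither of which passed.

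Ms4a7 was called in males and for the mean of the sexes. In males Ms4a7 ranged from 3.10 to 4.08 (median 3.37) on TG arrays and from 2.69 to 3.37 (median 3.06) on WT arrays. Ms4a7 ranged in female frontal cortex from 3.01 to 3.72 (median 3.22) on TG arrays and from 2.80 to 3.39 (median 3.0) on WT arrays. Both pairs of groups overlapped. Its log2 change was 0.36 (SE 0.12, adjusted p = 0.0292, limma) in males, 0.22 (SE 0.14, adjusted p = 0.281, limma) in females and 0.29 (SE 0.09, adjusted p = 0.0129, limma) for the mean. The male call ended without TG mouse 41 or 44 or WT mouse 49 or 52 (adjusted p from 0.054 to 0.0763) and with equal array medians (0.0517). In the hippocampus the change for the mean of the sexes was 0.12 (SE 0.05, adjusted p = 0.135, limma).

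Microglial markers moved in the direction of the MS4A genes. All 11 measured microglial genes and all 11 measured genes of plaque-associated microglia were higher in TG frontal cortex, with median changes of 1.94 and 3.32. The mean of the microglial list lay between 8.12 and 9.27 on female TG arrays, against 6.73 to 7.01 on female WT arrays, and between 8.24 and 8.87 on male TG arrays, against 6.48 to 6.96 on male WT arrays. Of 9 genes of border macrophages and monocytes, 2 were higher, with a median change of 0.12. All 8 astrocyte genes were higher too. Of 9 oligodendrocyte genes 4 were higher and 0 lower (Mbp 0.17, Mag 0.30, Cnp 0.24, Cldn11 0.56), with a median of 0.24. Of 9 genes of endothelium and pericytes 4 were higher and 0 lower (Flt1 0.36, Tek 0.40, Pdgfrb 0.17, Rgs5 0.33), with a median of 0.17. These 8 genes are named as the called members of their lists after their values were seen. The part of these cells in the rises of Ms4a6d, Ms4a7, Cd2ap and Bin1 was not tested.

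In each sex separately the counts were smaller. In female frontal cortex 3 genes were higher (Bin1, Cd2ap, Ms4a6d) and 3 lower (Sorl1, Ptk2b, Mef2c), where 8.75% and 10.2% of all named genes were called. In male frontal cortex 3 were higher (Cd2ap, Ms4a6d, Ms4a7) and 2 lower (Sorl1, Mef2c), where 8.8% and 11.7% of all named genes were called. With equal array medians the female counts were 2 higher and 3 lower (all named genes 6.91% and 16.3%), and the male counts 1 higher and 3 lower (6.87% and 19.8%). The male count of 5 became 3 without TG mouse 44. In female hippocampus only Sorl1 passed, where 1.54% of all named genes were called higher and 0.929% lower. In male hippocampus 0 of the 9 genes passed in limma, where 1.04% of all named genes were called higher and 0.261% lower. At an unadjusted p under 0.05, 4 of the 9 would have passed there, and 2341 of all named genes. With equal array medians the 9 genes kept these hippocampal counts, while the shares of all named genes became 1.27% higher and 1.36% lower in females and 0.796% and 0.627% in males.

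The spread of Mef2c and Ptk2b in the hippocampus was wide. Mef2c ranged from 8.16 to 9.93 (median 8.50) on female TG hippocampus arrays and from 8.18 to 9.56 (median 9.14) on female WT arrays. In males it ranged from 8.15 to 8.58 (median 8.38) on TG arrays and from 7.55 to 8.66 (median 8.55) on WT arrays. Mef2c exceeded 9 on 5 of 30 hippocampus arrays, 1 female TG (mouse 4) and 4 female WT. Those 5 arrays also had the 5 highest means of the cortical layer list, from 6.45 to 6.66, against 5.99 to 6.39 on the other hippocampus arrays. The change of Mef2c for the mean of the sexes was -0.12 (SE 0.15, adjusted p = 0.73, limma). It was -0.22 (adjusted p = 0.327) without mouse 4, -0.24 (adjusted p = 0.307) without mice 4 and 7, and between -0.22 and -0.06 over the arrays left out in turn. Mice 4 and 7 are both TG, and the fits without them kept the 4 female WT arrays above 9. With the cortical layer list mean as a covariate, a setting added after values had been seen, the Mef2c change was 0.39 (adjusted p = 0.0314), the opposite direction. That list was itself lower in TG than in WT mice, so covariate and genotype were not independent.

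Ptk2b ranged from 7.35 to 8.79 (median 8.57) on female TG hippocampus arrays and from 8.48 to 8.97 (median 8.58) on female WT arrays. The lowest value was that of mouse 4, and the next TG array had 8.48. In males Ptk2b ranged from 8.59 to 8.90 (median 8.68) on TG arrays and from 8.53 to 8.94 (median 8.72) on WT arrays. The change for the mean of the sexes was -0.11 (SE 0.09, adjusted p = 0.563, limma), and -0.01 without mice 4 and 7 (adjusted p = 0.938). Cd2ap ranged from 4.68 to 5.46 on female TG hippocampus arrays, against 4.90 to 5.16 on female WT arrays, and from 4.85 to 5.63 on male TG arrays, against 4.60 to 5.03 on male WT arrays. Bin1 ranged from 9.14 to 9.60 on female TG arrays, against 9.25 to 9.45 on female WT arrays, and from 9.28 to 9.42 on male TG arrays, against 9.02 to 9.31 on male WT arrays. All of these groups overlapped. The remaining changes for the mean of the sexes in hippocampus were 0.13 for Cd2ap, 0.10 for Abca7 and 0.06 for Bin1, with adjusted p from 0.268 to 0.597. The mean of 9 choroid plexus genes, whose level shows how much of that tissue a piece holds, was uneven between the male groups. It ranged from 4.13 to 8.21 (median 7.53) on male TG hippocampus arrays and from 3.74 to 7.98 (median 4.37) on male WT arrays, and it exceeded 7 on 5 of 8 male TG and 1 of 8 male WT arrays. In females it ranged from 3.80 to 8.39 (median 4.58) on TG arrays and from 3.69 to 6.70 (median 4.40) on WT arrays. With this mean as a covariate, Sorl1 changed by -0.20 (adjusted p = 0.00806, limma) and Ms4a6d by 0.20 (adjusted p = 0.0373, limma) for the mean of the sexes, so both calls held.

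**Figure D3:**
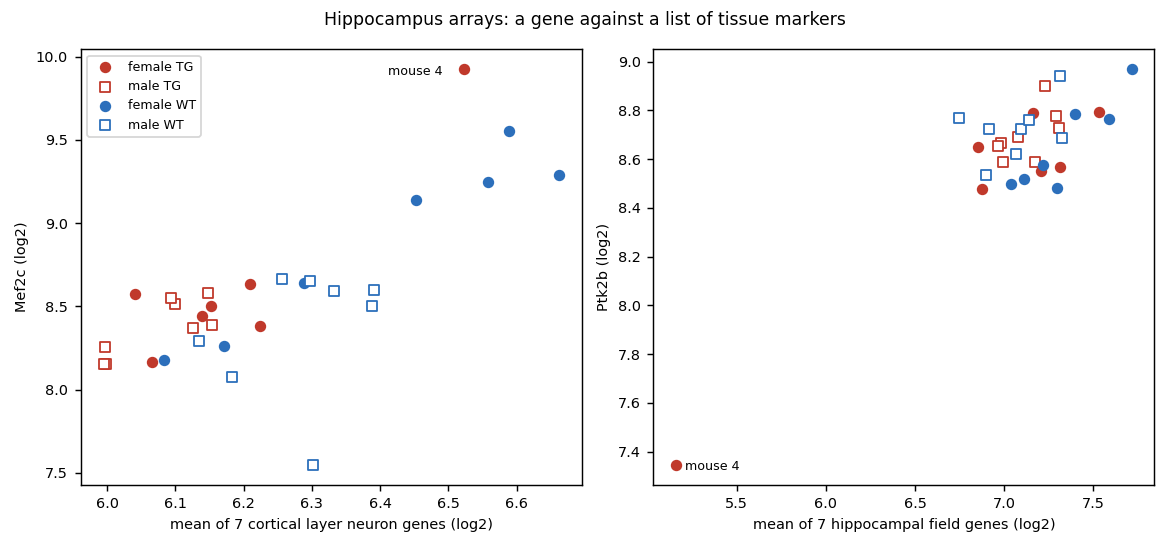
Hippocampus arrays only, with Mef2c against the mean of 7 cortical layer genes (left) and Ptk2b against the mean of 7 hippocampal field genes (right), all in log2 units. TG arrays are red, WT arrays blue, females filled circles and males open squares. The array of mouse 4 has Mef2c at 9.93 and Ptk2b at 7.35, with a hippocampal field mean of 5.16.

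WT mice served to compare the regions without the transgenes. Mef2c was 0.302 times as high in female and 0.22 times as high in male WT hippocampus as in WT frontal cortex, and Ptk2b 1.6 and 1.66 times as high. Of the 9 genes, 2 were higher (Bin1, Ptk2b) and 2 lower (Mef2c, Abca7) in female hippocampus, where 12.8% and 13.7% of all named genes were called. In males 1 was higher (Ptk2b) and 2 were lower (Mef2c, Abca7), where 17.2% and 15.5% were called. The male count became 5 without the frontal cortex array of WT mouse 48.

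Mef2c ranged from 8.18 to 9.56 in female WT hippocampus and from 7.55 to 8.66 in male WT hippocampus, against 10.54 to 10.70 and 10.40 to 10.73 in WT frontal cortex of the same sexes. The log2 difference was -1.73 (SE 0.17, adjusted p = 3.72e-12, limma) in females and -2.19 (SE 0.15, adjusted p = 1.27e-17, limma) in males. Within mice Mef2c was lower in the hippocampus of all 28 that gave both regions, TG and WT alike. The smallest gap, -0.50, belonged to TG mouse 4. Ptk2b ranged from 8.48 to 8.97 in female WT hippocampus and from 8.53 to 8.94 in male WT hippocampus, against 7.87 to 8.05 and 7.70 to 8.14 in WT frontal cortex. The log2 difference was 0.68 (SE 0.11, adjusted p = 3.64e-06, limma) in females and 0.73 (SE 0.10, adjusted p = 5.46e-08, limma) in males. It was higher in the hippocampus of 5 of 6 female TG, 8 of 8 male TG, 6 of 6 female WT and 8 of 8 male WT mice, and the exception was mouse 4.

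Abca7 was lower in WT hippocampus. It ranged from 3.90 to 4.46 in female and from 3.75 to 4.61 in male WT hippocampus, against 4.13 to 4.93 and 4.30 to 5.01 in WT frontal cortex of the same sexes. The groups overlapped, with a log2 difference of -0.41 (SE 0.13, adjusted p = 0.0162, limma) in females and -0.35 (SE 0.12, adjusted p = 0.0187, limma) in males. The female call ended without the frontal cortex array of mouse 1 (0.0724) or 2 (0.0742), and the male call without the frontal cortex array of mouse 52 (0.0526) or the hippocampus array of mouse 39 (0.073). Bin1 was higher in female WT hippocampus by 0.24 (SE 0.06, adjusted p = 0.00093, limma) and in 6 of 6 female WT mice, ranging from 9.25 to 9.45 against 8.89 to 9.30 in frontal cortex, while in males the difference was 0.05 (SE 0.05, adjusted p = 0.518). All 9 measured oligodendrocyte genes were higher in WT hippocampus of both sexes, with a median difference of 1.55 in females and 1.04 in males. Bin1 was called in females only. The 6 female WT frontal cortex arrays behind that call, with a mean of 9.10, also entered the TG comparison of Bin1 in female frontal cortex. The astrocyte list mean was higher as well, at 8.28 in hippocampus against 7.82 in frontal cortex of female WT mice. In male WT mice it was 8.22 against 7.82. Within that list only Gfap (2.64), Aqp4 (0.42) and Gja1 (0.46) were called in females. Slc1a3, Slc1a2, S100b and Sox9 did not pass, nor did Aldh1l1 (-0.32). In males only Gfap (2.46), Gja1 (0.43) and Sox9 (0.31) were called. The part of either cell type in the Bin1 difference was not tested. Cd2ap in males differed by -0.23 (SE 0.09) with an adjusted p of 0.05, just above the threshold before rounding. With the mouse as a random block it passed (0.0384), as it did without any of the frontal cortex arrays of mice 38 (0.03), 39 (0.0263), 48 (0.0379) and 49 (0.0415) or the hippocampus array of mouse 38 (0.035), and under 8 further alternatives, the lowest adjusted p being 0.0234. Cass4 in males differed by -0.18 (SE 0.08, adjusted p = 0.0736). It passed with the mouse as a fixed block (0.0446) and when mouse 48 (0.0351) or 52 (0.0198) was left out of frontal cortex or mouse 47 (0.027) out of hippocampus. With each of 16 male WT arrays left out in turn, the adjusted p of Cd2ap ran from 0.0263 to 0.12 (limma). That of Cass4 ran from 0.0198 to 0.195. Sorl1, Ms4a6d and Ms4a7 did not pass between the regions in either sex.

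**Figure D4:**
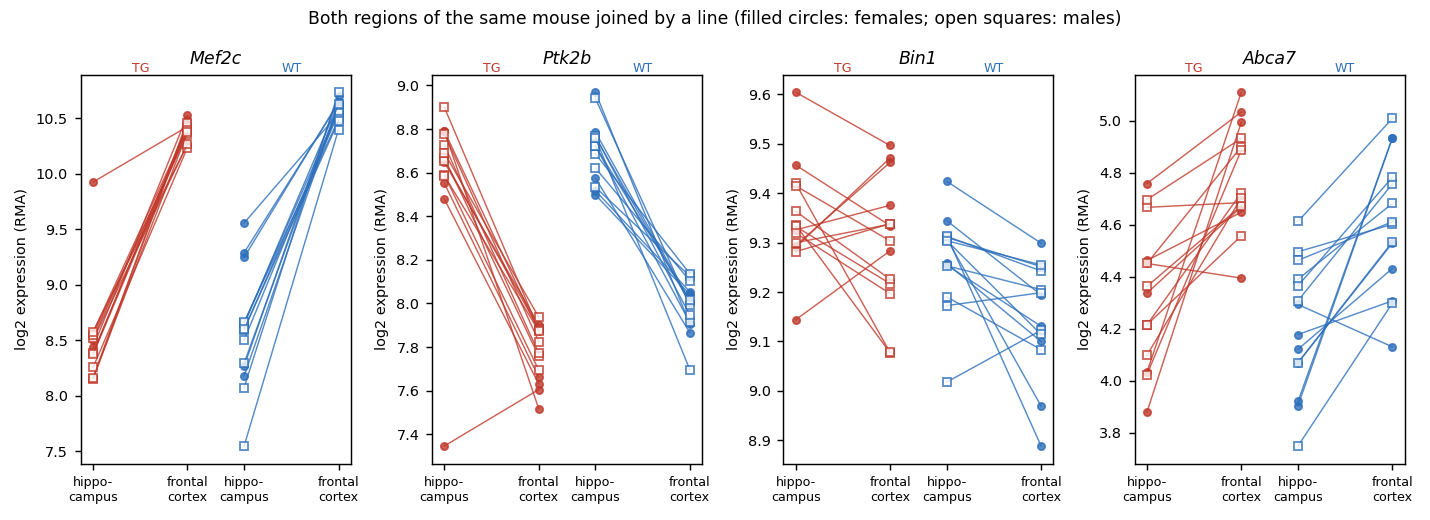
Log2 expression of Mef2c, Ptk2b, Bin1 and Abca7 in hippocampus (left end of each line) and frontal cortex (right end) of the same mouse, for TG (red) and WT (blue) mice that gave both regions. Filled circles are females and open squares males. All 28 Mef2c lines rise towards frontal cortex, and all Ptk2b lines but that of mouse 4 fall.

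Whether the TG change differed between regions was tested in the same fit of 8 groups. In females 0 of the 9 genes passed, where 0.203% of all named genes were called with a higher and 0.807% with a lower change in hippocampus. At an unadjusted p under 0.05, 2 of the 9 and 13.3% of all named genes passed. The hippocampal minus the frontal cortex change of Bin1 was -0.29 (SE 0.08, adjusted p = 0.0589, limma), and that of Ms4a6d was -0.46 (SE 0.14, adjusted p = 0.1, limma). With the mouse as a random block, Bin1 passed (-0.29, adjusted p = 0.0334), and with the mouse as a fixed block, Ms4a6d passed (-0.43, adjusted p = 0.0418). Without the hippocampus array of mouse 4 both passed, Bin1 at -0.33 (adjusted p = 0.00597) and Ms4a6d at -0.49 (adjusted p = 0.0379). Without mice 4 and 7, Bin1 passed at -0.34 (0.00898) and Ms4a6d did not at -0.47 (0.0617). Bin1 also passed without the frontal cortex array of TG mouse 8 (0.0259) or WT mouse 1 (0.0256). It passed too without the hippocampus array of TG mouse 9 (0.0457). Over 26 arrays left out in turn, the adjusted p of Bin1 ran from 0.00597 to 0.144 (limma). That of Ms4a6d ran from 0.0379 to 0.275. In males 0 of the 9 genes passed in limma, adjusted or unadjusted, where 0.587% and 1.07% of all named genes were called higher and lower. These region differences share arrays with the TG comparisons and the WT region comparisons above.

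The title of the series asks about sex. The TG change differed between females and males for 0 of the 9 genes, and for 0% of all named genes, in either region by limma. At an unadjusted p under 0.05, 1 of the 9 (Bin1) and 1130 named genes passed in frontal cortex, and 0 of the 9 and 842 named genes in hippocampus. WT females and WT males differed in 0 of the 9 genes in frontal cortex, where 0.0581% of all named genes were called higher and 0.0987% lower in females. In hippocampus it was again 0 of the 9, where 0.441% and 0.575% were called. With equal array medians these shares were 0.0407% and 0.11% in frontal cortex and 0.558% and 0.401% in hippocampus, again with 0 of the 9. The widest such difference was that of Mef2c in hippocampus, 0.54 (SE 0.21, adjusted p = 0.21), which includes the 4 female WT arrays above 9. The sexes carry separate ranges of mouse numbers, so sex and any cohort that the numbers mark cannot be told apart.

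Genes that work with the 9 were followed from lists, whose counts stand against 12.9% higher and 18.7% lower among all named genes in frontal cortex and 3.94% and 2.7% in hippocampus. Of 25 measured genes of clathrin endocytosis, the route in which Bin1 and its relatives bend membranes, 5 were higher and 9 lower in TG frontal cortex (mean of both sexes), with a median change of -0.03 (all named genes -0.01). The fission protein Dnm1 changed by -0.31 (SE 0.05, adjusted p = 3.47e-06, limma), and the endophilin Sh3gl2 by -0.38, the phosphatase Synj1 by -0.22 and the Bin1 relative Amph by -0.28. In the hippocampus 3 of the 25 were higher and 2 lower, and none of the 4 named genes passed. Of 16 genes listed around the system of Sorl1, 1 was higher and 6 were lower in frontal cortex, with a median of -0.08. The list holds the retromer, the VPS10 receptors and sorting adaptors. It also holds Lrp1, the 1 higher gene, and its partner Lrpap1 (-0.10, called lower), which are neither retromer subunits nor VPS10 receptors. The VPS10 receptors Sorcs3 and Sort1 changed by -0.28 and -0.16, the retromer subunit Vps26b by -0.24 and the receptor Lrp1 by 0.25. Sorcs3 was the 1 gene of this list called in hippocampus, at -0.30 (adjusted p = 0.00199, limma).

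Of 14 genes of focal adhesion kinase and Cas signalling, the setting of Ptk2b and Cass4, 4 were higher and 1 lower in frontal cortex, where 12.9% and 18.7% of all named genes were called, with a median of 0.08. The integrin-binding Tln1 rose by 0.63 (SE 0.07, adjusted p = 8.7e-08, limma), and the adhesion proteins Vcl and Pxn by 0.24 and 0.22 and the kinase Fyn by 0.26. In hippocampus Tln1 alone was called, at 0.35 (adjusted p = 0.00766, limma). Of 10 partners of Cd2ap and actin capping genes, 1 was higher (Rin3, 0.23) and 1 lower (Cttn, -0.21) in frontal cortex, with a median of -0.01, and 0 of 10 were called in hippocampus. Of 11 genes of the MEF2 family and its regulators, 3 were lower and 0 higher in frontal cortex, with a median of -0.08. These were the calcineurin subunits Ppp3cb (-0.32) and Ppp3ca (-0.16) and the histone deacetylase Hdac9 (-0.34), and 0 of 11 were called in hippocampus.

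Of 9 other ABCA transporters, 2 were higher and 1 lower in frontal cortex, with a median of 0.06. Against 12.9% higher and 18.7% lower among all named genes, that count is near the background and is no result about the family. Abca1, which exports cholesterol, changed by 0.49 (SE 0.08, adjusted p = 1.46e-05, limma), Abca4 by 0.18 and Abca5 by -0.25. Abca1 was also the 1 gene called in hippocampus, at 0.22 (adjusted p = 0.00731, limma). Of 13 other MS4A genes 4 were higher and 0 lower in frontal cortex, with a median of 0.08. Ms4a6b changed by 0.77 (SE 0.10, adjusted p = 4.49e-07, limma), Ms4a6c by 0.65, Ms4a4d by 0.10 and Ms4a4c by 0.10. In hippocampus Ms4a6b (0.41) and Ms4a6c (0.26) passed. Near-identical members of this family may share probe sequence, which was not checked here.

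Of 28 further genes at Alzheimer risk loci, 12 were higher and 4 lower in frontal cortex, where 12.9% and 18.7% of all named genes were called, with a median of 0.14, and 7 were higher and 1 lower in hippocampus. Trem2, the microglial lipid receptor, changed by 3.45 (SE 0.13, adjusted p = 7.27e-19, limma), the phospholipase Plcg2 by 1.32, the phosphatase Inpp5d by 0.94 and the actin regulator Abi3 by 1.19. All 4 are expressed in microglia, and all 4 passed in hippocampus too, at 1.98, 0.47, 0.48 and 0.37.

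The genes whose array-to-array pattern was most like that of each gene were found from deviations from the 8 group means over 58 arrays, as a description. All points share these arrays, so tissue content and array quality enter every coefficient. They include the hippocampus array of mouse 4, which lay far from its group in Mef2c, Ptk2b and Sorl1. The coefficients were not computed without that array. Mef2c was most like Cckbr and Cux2 (Pearson r = 0.90 each) and Pdzrn3 (0.88). Ptk2b was most like Kcnip2 and Ak5 (0.85 each) and Rgs14 (0.82). Ms4a6d was most like Wfdc17 and Dhrs1 (0.74 each) and Parp3 (0.73), and Sorl1 like Gdap2 and Kifbp (0.74 each) and Nrn1 (0.67). Bin1 was most like Gpr37l1 (0.72), Dtna (0.70) and Ntsr2 (0.69). The likeness was weaker for Cd2ap (Luc7l3 0.63, Asph 0.60, Mindy2 0.58) and Abca7 (Flii 0.59, Adcy6 0.56, Clk3 0.55). It was weakest for Ms4a7 (Lef1 0.56, Ceacam1 0.53, Tnfrsf19 0.52) and Cass4 (Trmt6 0.51, Thumpd2 0.50, Mc1r 0.49).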

How the data were processed

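RNA of frontal cortex and hippocampus was labelled and hybridised to Affymetrix arrays, per the labels' protocols. The deposited log2 expression levels, 1 for each probe set, come from RMA, which corrects background, normalizes by quantiles and summarises probes by median polish. The submitters' processing notes name RMA and R 3.2.2 for this. The sources used here name no chip definition file. No detection calls were used. The number of arrays limits precision. The values were used as deposited: 17216 of 17856 probe sets carry 1 gene symbol, and 640 without one were left out. Array medians lay between 4.73 and 4.85.

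In R 4.3.3, limma 3.58.1 (lmFit, eBayes) fitted the 4 groups of each region, or all 8 groups for region contrasts, with two-sided tests and p-values adjusted by Benjamini and Hochberg over all 17216 genes (threshold 0.05). Intervals are at 95%. The scripts were tested on simulated data. Alternatives covered scaling, weights, gene filters, the mouse as a block, covariates and leaving out each array. Mouse numbers pair the regions, since the protocol takes both from each mouse. Deviations of a mouse's arrays from the group means correlated from -0.033 to 0.363 (median 0.111, over 0.1 in 15 of 28 mice).

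The genes and lists were chosen with earlier results of these data known. Named genes are the 9 genes, Thy1, from each pathway list up to 4 genes of smallest p among those passing in frontal cortex (mean of both sexes), and the 3 genes most like each of the 9.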

Additional observations from a re-analysis of the deposited data

Results flagged for a closer look

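Of 72 combinations of gene and group, 4 held an array far from the rest of its group by Dixon's ratio. Chance gives such an array in about 1 of 20 independent groups. The 9 genes share the same arrays, so the count of 4 cannot be set against that rate. Cd2ap on the male TG hippocampus array of mouse 40 was 5.63, and the next highest was 5.10. Without it the Cd2ap change in male hippocampus was 0.13 in place of 0.21, and neither passed the test. The other 3 were all on the female TG hippocampus array of mouse 4, with Mef2c at 9.93 (next 8.64), Ptk2b at 7.35 (next 8.48) and Sorl1 at 9.73 (next 10.02). That array also had the lowest mean of the hippocampal field genes, 5.16, and its part in these values was not tested.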

How the results depend on the processing

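Leaving out 1 array at a time kept 2567 of 2610 single-gene results on their side of the threshold, and 25 calls ended and 18 were gained. The other alternatives kept 1128 of 1159, with 8 ended, 22 gained and 1 reversed, Mef2c in hippocampus (mean of both sexes), which was 0.39 with the cortical layer list as a covariate. A change that passed in neither setting was counted as kept whatever its sign. The number of the 9 genes past the threshold was 3 to 6 in male frontal cortex when 1 array was left out (5 with all), 2 to 5 between WT regions in males (3 with all) and 0 to 2 for the region difference in females (0 with all). It was 5 between WT regions in males with array weights and with equal array medians. In female hippocampus it was 2 with the cortical covariate and 0 with only the groups compared, against 1. For the mean of the sexes in hippocampus it was 1 with the brighter genes alone and 4 with the cortical covariate, against 2. For the region difference in females it was 1 with array weights, with the brighter genes alone, with the mouse as a fixed or a random replicate block, and without the hippocampus arrays of mice 4 and 7. The replicate block, pairing arrays by mouse, changed no call beyond those given for Bin1, Ms4a6d, Cd2ap and Cass4. The frontal cortex calls for the mean of the sexes held with each array left out. Under the other alternatives their number was 5 to 7, against 7 in the main fit. These alternatives include the brighter genes alone, which leave out dim genes. In female frontal cortex the number was 4 to 6 in both kinds of setting, against 6. In male frontal cortex it was 4 to 6 under the other alternatives, against 5. The cause of each shift was not tested. Dim signal limits Ms4a6d and Ms4a7, and 2 of the alternatives, the cortical covariate and mice 4 and 7, were chosen after seeing the data.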
